A study of Mus musculus with 4 samples.

Results

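Open chromatin was described at 6 genes that act on extracellular adenosine and on purine breakdown, Nt5e, Entpd1, Ada, Adora2a, Pnp and Dpp4, out of 21883 protein-coding genes of the annotation used. The genes were listed by name, and every ATAC-seq peak that overlapped a gene's span or the 60 kb on either side of it was taken. This gave 39 regions, a region being a stretch in which peaks of the 4 libraries overlap by at least 1 bp, out of 36224 regions on chromosomes 1 to 19, X and Y. The members were selected on a measured value, because a region 54106 bp from Nt5e was called in EpCAM-negative libraries alone, so that region is described here and supports nothing.

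ATAC-seq uses a transposase to insert adapters into accessible DNA, and a peak marks a place where insertions pile up. The cells were DN3 thymocytes of wild-type mice, the CD4/CD8 double-negative precursors that rearrange the T cell receptor beta gene. They had been sorted by flow cytometry and then split with magnetic beads by the adhesion molecule EpCAM. The bead-bound cells are the EpCAM-positive fraction and the unbound cells the EpCAM-negative fraction, with 2 libraries each. The series title gives EpCAM a part in marking a poised subset of double-negative cells, and comparing the fractions asks which sites are more open in DN3 cells that carry it. Strain, age and sex of the mice are not in the labels used here. Nor is it stated there that libraries of a fraction come from different mice, so their spread may be technical.

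Extracellular ATP is broken down on the cell surface in steps. CD39, encoded by Entpd1, removes phosphates from ATP and ADP, and CD73, encoded by Nt5e, turns the resulting AMP into adenosine. Adenosine acts on receptors such as the one encoded by Adora2a, which raises cyclic AMP and restrains T cell activation, or it is deaminated to inosine by adenosine deaminase, encoded by Ada. Purine nucleoside phosphorylase, encoded by Pnp, splits inosine and guanosine into base and sugar. Dpp4 encodes CD26, a surface peptidase that in humans also anchors adenosine deaminase. Inherited loss of adenosine deaminase or of purine nucleoside phosphorylase depletes T cells, since developing thymocytes are sensitive to the deoxynucleotides that then build up. In the mouse thymus CD73 is known as a marker of double-negative cells that commit to the gamma-delta lineage.

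The start sites of 5 of the 6 genes are in the RefSeq promoter table of build GRCm38.p6 (mm10), and Adora2a is not in it. The 250 bases upstream of the first listed start are printed for these 5 genes, 5′ to 3′ on the strand of the gene, because the peaks at the gene starts cover different parts of them. They lie at chr9:88327359-88327608 (plus strand) for Nt5e, chr19:40612116-40612365 (plus) for Entpd1, chr2:163750240-163750489 (minus) for Ada, chr14:50944053-50944302 (plus) for Pnp and chr2:62412232-62412481 (minus) for Dpp4. Capitals mark matches on either strand to 13 short motifs.
Nt5e: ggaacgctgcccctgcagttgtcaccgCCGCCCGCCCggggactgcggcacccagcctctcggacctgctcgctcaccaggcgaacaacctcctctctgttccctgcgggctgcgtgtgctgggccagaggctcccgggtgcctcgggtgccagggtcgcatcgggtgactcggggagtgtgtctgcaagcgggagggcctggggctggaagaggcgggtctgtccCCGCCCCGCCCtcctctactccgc
Entpd1: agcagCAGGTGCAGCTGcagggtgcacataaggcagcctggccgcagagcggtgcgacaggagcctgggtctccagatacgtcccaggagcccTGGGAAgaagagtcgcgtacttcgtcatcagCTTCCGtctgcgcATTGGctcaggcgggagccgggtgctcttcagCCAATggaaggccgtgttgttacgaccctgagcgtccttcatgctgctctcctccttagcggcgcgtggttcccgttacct
Ada: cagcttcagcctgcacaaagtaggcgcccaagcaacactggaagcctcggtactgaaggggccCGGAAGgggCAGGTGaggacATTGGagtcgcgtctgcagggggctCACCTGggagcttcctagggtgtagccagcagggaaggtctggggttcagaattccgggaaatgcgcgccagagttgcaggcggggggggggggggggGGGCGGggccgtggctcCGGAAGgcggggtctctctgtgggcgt
Pnp: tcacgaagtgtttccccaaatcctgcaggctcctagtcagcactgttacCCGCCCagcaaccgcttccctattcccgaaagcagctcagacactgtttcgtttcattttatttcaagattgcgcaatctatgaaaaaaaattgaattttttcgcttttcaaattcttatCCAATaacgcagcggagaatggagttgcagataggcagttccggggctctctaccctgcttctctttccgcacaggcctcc
Dpp4: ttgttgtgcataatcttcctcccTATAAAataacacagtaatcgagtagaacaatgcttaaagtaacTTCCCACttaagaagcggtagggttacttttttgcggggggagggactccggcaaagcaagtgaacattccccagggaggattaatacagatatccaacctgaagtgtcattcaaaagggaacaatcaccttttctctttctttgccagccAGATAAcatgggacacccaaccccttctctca
The motifs searched were TGTGGT for RUNX factors, AGATAA for factors such as Gata3, CGGAAG for ETS factors, CTTTGA for TCF/LEF factors, an E-box with the letters CAGCTG, another E-box with the letters CAGGTG, RBPJ (GTGGGAA), Ikaros (TGGGAA, which also lies inside the RBPJ letters), the GC box (GGGCGG), the box named for its letters CCAAT, CRE (TGACGTCA), AP-1 (TGACTCA) and the TATA box (TATAAA). Background shares are over 32851 promoters of the table cut to the same 250 bases. The Nt5e stretch is 72% G and C, above 93.1% of all promoters, and its capitals are 4 GC box matches in overlapping pairs, a motif found in 32.7% of promoters. The Entpd1 stretch is 62.4% G and C and holds 2 CCAAT boxes (33.8% of promoters), both E-boxes (13% and 17.2%), an ETS match (13.6%) and an Ikaros match (21.6%). The Ada stretch is 67.2% G and C, with 2 ETS matches, 2 CAGGTG E-boxes, a GC box and a CCAAT box. The Pnp stretch is 46.8% G and C, with a GC box and a CCAAT box. The Dpp4 stretch is 43.6% G and C, above 20.1% of promoters, with a GATA match (9.99% of promoters), a TATA box 227 bp upstream of the start (12.4%) and an RBPJ match (5.42%) that is also counted for Ikaros. A match is a description of letters and no evidence that a factor binds there.

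Depth as a count of reads is not known. For every listed peak the pileup at its summit was worked back from the fold and −log10 p of the list, and it is called summit fragments here. To set libraries side by side, summit fragments were divided by a factor per library, the median ratio over the 16761 regions called in all 4 libraries. The factors were 1.1 and 1.13 for EpCAM-positive replicates 1 and 2 and 0.912 and 0.895 for EpCAM-negative replicates 1 and 2, and the divided values are called scaled summit fragments. Lists held 24598 to 29030 peaks, with a lowest −log10 p of 4.38 and 4.33 in EpCAM-positive and of 3.62 and 3.65 in the EpCAM-negative lists, so that weak peaks could enter the EpCAM-negative lists more easily. Of 12 DN3 marker genes, 5 had a region within 1 kb of a gene end in all 4 libraries (Il2ra, Notch1, Bcl11b, Cd3e and Cd3g), where 41.3% of all protein-coding genes have one. Gata3 had none in any library, and Rag1, which cuts the receptor genes for rearrangement, had one in both EpCAM-negative and in neither of the EpCAM-positive libraries. Per library, 7 and 6 of the 12 had one among EpCAM-positive and 11 and 7 among EpCAM-negative replicates 1 and 2, the highest number being in EpCAM-negative replicate 1. Of 8 thymic epithelial markers, Aire and Cldn4 had such a region in all 4, Epcam in all but EpCAM-negative replicate 1, and the other 5 in none. Of the 5 gamma-delta markers matched, Etv5, Id3 and Il17rb had one in all 4 libraries, Blk in EpCAM-negative replicate 2 alone and Sox13 in none. In all 4 libraries, 1 of 5 B cell markers, 0 of 6 myeloid and dendritic, 1 of 5 NK and innate lymphoid and 0 of 4 double-positive markers had one. Fewer accessible cells and less access per cell cannot be told apart in such bulk libraries.

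Across the 6 genes, being called in all 4 libraries was the most frequent pattern of a region, as it was over all regions. Of the 39 regions, 17 (43.6%) were called in all 4 libraries, near the 46.3% of all regions. The EpCAM-positive-only pattern, called in both EpCAM-positive and in neither EpCAM-negative library, was met by 1 region, at the start of Ada, where 4.4% of all regions meet it. The EpCAM-negative-only pattern was met by 2, the one near Nt5e and one inside Dpp4, where 1.72% of all regions meet it; the Nt5e region was the reason for the list, so nothing is read from this count. A further 7 regions (17.9%) were called in 3 libraries, 6 (15.4%) in 1 library of each fraction and 6 (15.4%) in a single library, where 10.8%, 6.95% and 29.8% of all regions were. With 2 libraries against 2 no single region can reach a two-sided exact permutation p below 0.33, and none was tested. These counts rest on single calls. The EpCAM-positive-only count was 4 without EpCAM-positive replicate 1, 3 without EpCAM-negative replicate 1 and 2 without EpCAM-negative replicate 2. The EpCAM-negative-only count was 5 without EpCAM-positive replicate 2, 4 without EpCAM-negative replicate 1 and 3 without either of the other libraries. With a library left out, its fraction is judged by 1 library alone, so both patterns are easier to meet and these counts can rise for that reason. The matching share of all regions is not given here.

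**Figure D1:**
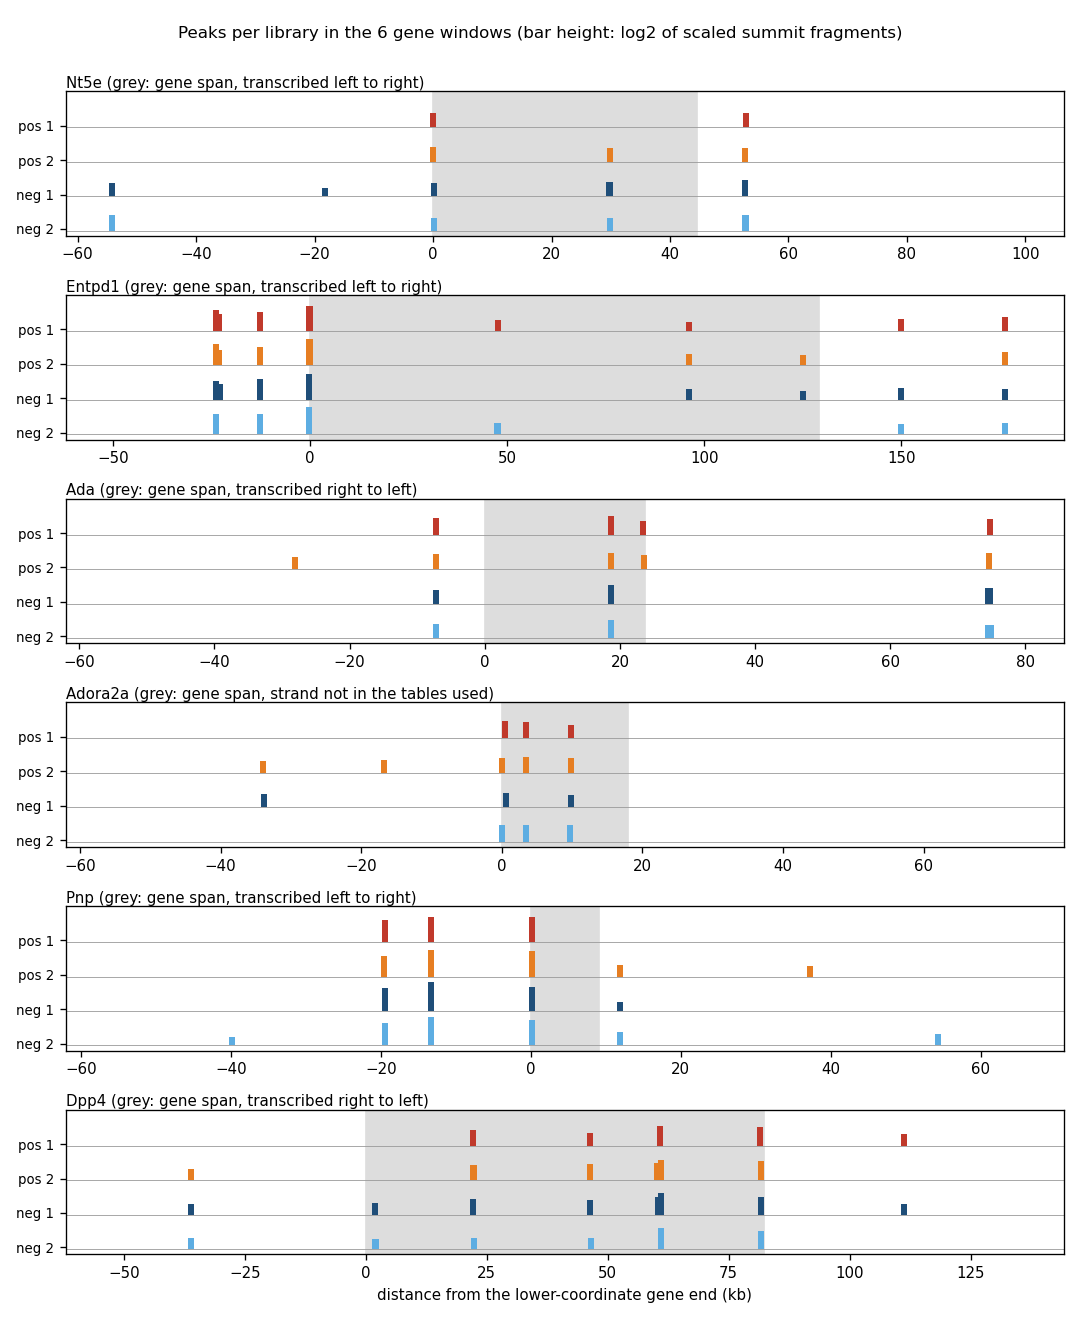
Peaks of each library in the 6 gene windows. The horizontal axis is the distance in kb from the gene's lower-coordinate end, grey marks the gene span, pos and neg are EpCAM-positive and EpCAM-negative replicates 1 and 2, and each bar is a peak, drawn wider than it is, with a height that follows the log2 of its scaled summit fragments. The peaks 54 kb to the left of Nt5e stand in the EpCAM-negative rows alone, and the peak at the right end of the Ada span in the EpCAM-positive rows alone.

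Peaks in the windows numbered 25 in EpCAM-positive replicate 1, 32 in EpCAM-positive replicate 2, and 32 and 29 in EpCAM-negative ones. The means were 28.5 ± 4.95 and 30.5 ± 2.12 (SD, n = 2 each), and the fractions overlapped. The ratio of the means, EpCAM-positive over EpCAM-negative, was 0.934, where that of the whole lists was 1.09. The counts and this ratio hold the Nt5e peaks for which the members were picked. Without that region the EpCAM-negative counts were 31 and 28, with a mean of 29.5 against 28.5 (p = 1 in an exact permutation test, two-sided). With 2 libraries against 2 this test cannot give a p below 0.33, so it could not have shown a difference. Without EpCAM-positive replicate 1, the one with the fewest, the order of the means turned, with 1.5 more peaks on the EpCAM-positive side. Of the 39 regions, 17 had their summit inside the member gene, and 7 lay within 1 kb of one of its ends. For 19 regions the nearest gene end belonged to another gene, among them 9 of the 17 regions called in all 4 libraries. The flank of 60 kb set which regions were taken. The region near Nt5e was the outermost one inside it, its near edge 53990 bp from the gene, and the next regions beyond the flank began 66464 bp from Nt5e, 60652 bp from Entpd1 and 67826 bp from Ada.

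Nt5e (gene ID 23959, chromosome 9, 88327609 to 88372089, plus strand) had 5 regions. CD73 is the enzyme that makes extracellular adenosine. Its start was accessible in both fractions. The region at 88327282 to 88327873 had 16 summit fragments in each EpCAM-positive library and 10 and 9 in EpCAM-negative ones, or 14.6 and 14.1 against 11.0 and 10.1 scaled summit fragments. Both EpCAM-positive values lay above both EpCAM-negative values under each of the 3 scalings tried (the median ratio, the lowest common background and none). The ratio of the fractions was 1.37 with a 95% counting interval of 0.751 to 2.55, so a difference was not detectable at this depth.

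Peaks at the Nt5e start also differed in extent. Counted in bp from the start, the peak ran from −327 to 154 in EpCAM-positive replicate 1 and from −292 to 184 in replicate 2, over all 250 printed bases and all 4 GC box matches. For EpCAM-negative replicates 1 and 2 it ran from −77 to 238 and from −22 to 264, covering 77 and 22 of the printed bases. Summits stood 3 and 1 bp downstream of the start in EpCAM-positive libraries and 36 and 55 bp downstream in EpCAM-negative ones. The EpCAM-positive peaks were 482 and 477 bp wide and the EpCAM-negative ones 316 and 287 bp. A peak's width also moves with its pileup and with the lowest value listed, both of which differ between these lists, and their part was not tested.

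The region for which Nt5e was chosen lies upstream of the gene, at 88273326 to 88273619, in no protein-coding gene. It had 10 and 14 summit fragments in EpCAM-negative replicates 1 and 2, or 11.0 and 15.6 scaled, and stood at percentiles 44.0 and 58.6 of the lists by −log10 q. Neither EpCAM-positive list had a peak nearer than 31261 bp. With the local background of the EpCAM-negative libraries carried over, a pileup of 5 would have reached the lowest −log10 p of either EpCAM-positive list. Among the 623 EpCAM-negative-only regions, 184 had a lower value of at least 10 summit fragments, so the region belonged to the stronger part of a weak class with a median of 8. A second upstream peak, at 88309280 to 88309503 and 18222 bp from the gene, had 4 summit fragments and was listed only in EpCAM-negative replicate 1.

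Inside Nt5e, 29703 bp downstream of its start, the region at 88357220 to 88357675 had 15 summit fragments in EpCAM-positive replicate 2 and 12 and 9 in EpCAM-negative libraries. It was not listed in EpCAM-positive replicate 1, where a pileup of 6 would have sufficed. This spread within the EpCAM-positive fraction shows how far the listing of a region of this strength can differ between libraries of 1 fraction. Beyond the other end of Nt5e a region within the neighbour Snx14 (88380044 to 88380651) had the opposite order to the Nt5e start. It had 12.8 and 11.5 scaled summit fragments in EpCAM-positive and 18.6 and 16.8 in EpCAM-negative libraries, an order kept under all 3 scalings, with a ratio of 0.684 (counting interval 0.395 to 1.18). The end of Snx14 was 3504 bp away and that of Nt5e 8170 bp.

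Entpd1 (gene ID 12495, chromosome 19, 40612366 to 40741602, plus strand) had 9 regions, and 4 were shared by the 4 libraries. No region here met a fraction-only pattern. CD39 supplies the AMP that CD73 uses. Its first start shares a strong region with Tctn3, a gene of the primary cilium whose span holds the summit and ends 92 bp from it. That region, at 40611785 to 40612593, had 105 and 130 summit fragments in EpCAM-positive and 102 and 121 in EpCAM-negative libraries. Scaled, these were 95.7 and 115 against 112 and 135, and the fractions overlapped (ratio 0.855, counting interval 0.709 to 1.03). In each library the peak covered all 250 printed bases, and summits stood at −126 to −137 bp from the start, within 11 bp of each other. It belonged to the strongest peaks of each list, between percentiles 96.5 and 98.6.

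A second listed start of Entpd1, at 40659770, had a weak region just downstream of it (40659773 to 40660255). It had 8 summit fragments in EpCAM-positive replicate 1 and 7 in EpCAM-negative replicate 2, was not listed in the other 2 libraries, and left the 250 bases upstream of that start uncovered in all 4. A region deeper in the gene at 40708404 to 40708702 had 6 and 9 summit fragments on the EpCAM-positive side and 7 in EpCAM-negative replicate 1. One near the far end of the gene (40737160 to 40737608) had 7 in EpCAM-positive replicate 2 and 5 in EpCAM-negative replicate 1. All regions inside Entpd1 were thus at 9 summit fragments or fewer and missing from at least 1 library.

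Around Entpd1 the shared regions lay nearer to other genes and had either order. The region within Tctn3 at 40599318 to 40599931, 12637 bp upstream of Entpd1, had 29.2 and 30.9 scaled summit fragments in EpCAM-positive and 47.1 and 40.2 in EpCAM-negative libraries. Its ratio was 0.688 with a counting interval of 0.489 to 0.965, and the order held under all 3 scalings. At a gene end of Aldh18a1, which encodes an enzyme of proline synthesis (40588062 to 40588993), the values were 46.5 and 48.6 against 32.9 and 41.3, with a ratio of 1.28 (0.936 to 1.77). Within Cc2d2b at 40788561 to 40788887, 47147 bp beyond the far end, they were 12.8 and 10.6 against 7.67 and 7.82, with a ratio of 1.51 (0.758 to 3.12). The last 2 had the EpCAM-positive values on top under all 3 scalings. In the interval of Tctn3 the value 1 was not included, but 6.55% of all regions called in all 4 libraries had an interval below 1 and 5.49% one above 1. Regions beside Aldh18a1 (40589188 to 40589492) and within Cc2d2b (40762256 to 40762531) were called in 3 libraries each, the first missing in EpCAM-negative replicate 2 and the second in EpCAM-positive replicate 2.

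Adora2a (gene ID 11540, chromosome 10, 75316877 to 75334792) encodes a receptor through which adenosine raises cyclic AMP. It had 6 regions, of which 1 was called in all 4 libraries. That region, at 75326386 to 75326947 inside the gene, had 13 and 18 summit fragments in EpCAM-positive and 9 and 17 in EpCAM-negative libraries, and the fractions overlapped (ratio 0.967, counting interval 0.556 to 1.7). At the lower-coordinate end of the gene the 4 lists placed their peaks at 2 adjoining spots. EpCAM-positive replicate 2 and EpCAM-negative replicate 2 had a peak at 75316774 to 75317032 with 16 and 20 summit fragments. EpCAM-positive replicate 1 and EpCAM-negative replicate 1 had one at 75317134 to 75317554 with 28 and 12. Joined when up to 500 bp apart, they formed a single region called in all 4 libraries (75316774 to 75317554). The split thus followed the replicate number and not the fraction.

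Another region in Adora2a (75320179 to 75320488) had 23 and 21 summit fragments on the EpCAM-positive side and 17 in EpCAM-negative replicate 2, and was not listed in EpCAM-negative replicate 1. There the local background was high, and a pileup of 10 would have been needed for listing. Within the neighbour Specc1l, a region at 75282744 to 75283208 had 9 summit fragments in EpCAM-positive replicate 2 and 11 in EpCAM-negative replicate 1, and another (75300007 to 75300220) was listed in EpCAM-positive replicate 2 alone with 12. No region of the Adora2a window met either fraction-only pattern. The first region beyond the flank on its higher side, 76597 bp from the gene, was EpCAM-negative-only.

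Ada (gene ID 11486, chromosome 2, 163726571 to 163750239, minus strand) had 5 regions, and 3 were shared by the 4 libraries. Adenosine deaminase removes adenosine and deoxyadenosine and is abundant in thymocytes. Just inside its start lay the EpCAM-positive-only region of the set, at 163749911 to 163750214. It had 13 and 14 summit fragments in EpCAM-positive replicates 1 and 2, or 11.8 and 12.4 scaled, on a background of 1.94 and 1.9, and both EpCAM-negative lists had no peak nearer than 4329 bp. A pileup of 7 would have reached the lowest −log10 p of either EpCAM-negative list on the background carried over. Within its lists the peak was weak, at percentiles 14.2 and 24.1, while among 1594 EpCAM-positive-only regions 25.1% had a lower value of at least 13 summit fragments. Its summits stood 232 and 206 bp downstream of the start, and the peaks ran from 78 to 328 and from 25 to 238 bp downstream, so that they covered none of the printed bases.

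The strongest region inside Ada lay 4976 bp downstream of its start (163744975 to 163745643). It had 29.2 and 20.3 scaled summit fragments in EpCAM-positive and 30.7 and 26.8 in EpCAM-negative libraries, and the fractions overlapped (ratio 0.858, counting interval 0.577 to 1.28); scaled by the lowest common background instead, both EpCAM-negative values were higher. The start of Ada and this region inside the gene therefore differed in their pattern of calls. Beyond the far end of Ada, a region within Pkig, which encodes an inhibitor of protein kinase A (163719111 to 163719571), had 19.1 and 15.9 against 11.0 and 12.3, with a ratio of 1.51 (0.865 to 2.7) and both EpCAM-positive values on top under all 3 scalings. Upstream of Ada, 50833 bp from it, the region at 163800881 to 163801665 had 17.3 and 19.5 against 16.4 and 11.2 (ratio 1.33, 0.79 to 2.28), which overlapped when scaled by the lowest common background. The remaining region, also within Pkig (163698305 to 163698540), was listed in EpCAM-positive replicate 2 alone with 11 summit fragments.

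Pnp (gene ID 18950, chromosome 14, 50944303 to 50953412, plus strand) had 7 regions, and its start was among the most accessible of the set. Purine nucleoside phosphorylase acts after adenosine deaminase and also removes deoxyguanosine. The region at 50944157 to 50944822 had 95 and 114 summit fragments in EpCAM-positive and 69 and 90 in EpCAM-negative libraries. Scaled, these were 86.6 and 101 against 75.6 and 101, and the fractions overlapped (ratio 1.07, counting interval 0.863 to 1.32), while both EpCAM-positive values lay on top without scaling. Its summits stood 278 to 316 bp downstream of the listed start, and the peaks reached 30 to 146 bp upstream of it, over the CCAAT box at 81 bp in 2 of the 4 libraries.

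At the end of Pnp2, a near copy of Pnp that follows it on the chromosome, a region at 50956056 to 50956458 had 10 summit fragments in EpCAM-positive replicate 2 and 5 and 11 in EpCAM-negative libraries. It was not listed in EpCAM-positive replicate 1. Reads from stretches that the 2 copies share may have been placed in either or dropped, and what the authors did with such reads is unknown here. The strongest region of the whole set lay between Pnp and its neighbours, 57 bp from the end of Pip4p1, a phosphoinositide phosphatase gene (50930548 to 50931486). It had 107 and 138 summit fragments in EpCAM-positive and 169 and 142 in EpCAM-negative libraries, or 97.5 and 122 against 185 and 159 scaled. Its ratio was 0.639 with a counting interval of 0.538 to 0.758, and the order held under all 3 scalings. The difference of −0.65 on the log2 scale stood at percentile 4.25 of all regions called in all 4 libraries, so about that share of regions leaned at least as far to the EpCAM-negative side. At Osgep, a gene for transfer RNA modification (50924283 to 50925334), the values were 52.9 and 41.6 against 60.3 and 58.1 (ratio 0.796, 0.602 to 1.05), which overlapped without scaling. The other 3 regions of the Pnp window were each listed in 1 library, with 4 to 8 summit fragments.

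Dpp4 (gene ID 13482, chromosome 2, 62330073 to 62412315, minus strand) had 7 regions, 5 of them inside the gene, more than any other of the 6 genes. CD26 cleaves dipeptides from chemokines and other peptides and serves as a co-stimulatory molecule of T cells. Near its start, the region at 62411117 to 62412194 had 33 and 35 summit fragments in EpCAM-positive and 21 and 22 in EpCAM-negative libraries, or 30.1 and 30.9 against 23.0 and 24.6 scaled. Both EpCAM-positive values lay above both EpCAM-negative ones under all 3 scalings, with a ratio of 1.28 (counting interval 0.863 to 1.93). The peaks lay wholly downstream of the listed start, beginning 37 to 270 bp after it, and none of the printed bases was covered. Summits stood 699 and 629 bp downstream in EpCAM-positive and 409 and 430 bp downstream in EpCAM-negative libraries.

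At 2 regions deeper in Dpp4 the EpCAM-negative libraries differed from each other more than the means of the fractions did. At 62351937 to 62352560, 59894 bp downstream of the start, scaled summit fragments were 18.2 and 15.0 in EpCAM-positive and 17.5 and 7.82 in EpCAM-negative libraries. At 62376165 to 62376690 they were 10.9 and 18.6 against 14.3 and 7.82. In both regions EpCAM-negative replicate 2 was the lowest library and the fractions overlapped, though in the first both EpCAM-positive values lay on top without scaling. The wide region at 62390164 to 62391411 had 38.3 and 37.1 against 47.1 and 44.7 (ratio 0.821, counting interval 0.599 to 1.13), an order opposite to that at the gene's start, which overlapped without scaling.

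The EpCAM-negative-only region of Dpp4 lay at the far end of the gene, at 62331893 to 62332186, inside the gene and 2003 bp from its end. It had 8 and 6 summit fragments in EpCAM-negative replicates 1 and 2, at percentiles 16.9 and 9.56 of the lists, and 82.3% of EpCAM-negative-only regions had a lower value of at least 6. The nearest EpCAM-positive peak was 19751 bp away. A pileup of 5 would have been listed in either EpCAM-positive library on the background carried over, only 1 below the weaker EpCAM-negative value. Its −log10 q was 5.14 and 4.2 in EpCAM-negative replicates 1 and 2. With a −log10 q of at least 5 asked of all peaks it was therefore called in replicate 1 alone and no longer met the pattern. Outside the gene, a region within Slc4a10 (62293786 to 62294162) was called in 3 libraries with 6 to 9 summit fragments, and one 28874 bp beyond the start side of the gene (62441000 to 62441426) in EpCAM-positive replicate 1 and EpCAM-negative replicate 1 with 10 and 6.

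Taking the 17 shared regions together, 6 had both EpCAM-positive values above both EpCAM-negative values and 5 the reverse, and in 6 the fractions overlapped. Over all 16761 regions called in all 4 libraries, 21.7% separated in the first direction and 21.7% in the second. The split among the 17 was 5 and 7 when scaled by the lowest common background and 8 and 3 without scaling. Over all shared regions those scalings gave 13.3% and 32.1%, and 49.4% and 5.2%. They move the median of all shared regions by −0.11 and 0.31 on the log2 scale. Under all 3 scalings the EpCAM-positive values were higher in 5 regions and the EpCAM-negative values in 3. The share of all shared regions that keep an order under all 3 is not given here, so these counts are not read as particular to the 6 genes. The first 5 were at the starts of Nt5e and Dpp4, at a gene end of Aldh18a1 and within Pkig and Cc2d2b, and the other 3 lay within Snx14, within Tctn3 and at the end of Pip4p1. Without EpCAM-positive replicate 1, 10 regions of 20 had the EpCAM-positive value on top, where 34.9% of all regions did. Without EpCAM-negative replicate 1, 8 regions of 18 had the EpCAM-negative value on top, where 36.6% did. Of the 17 counting intervals, 0 lay above 1 and 2 below it, where 5.49% and 6.55% of all regions called in all 4 libraries did.

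**Figure D2:**
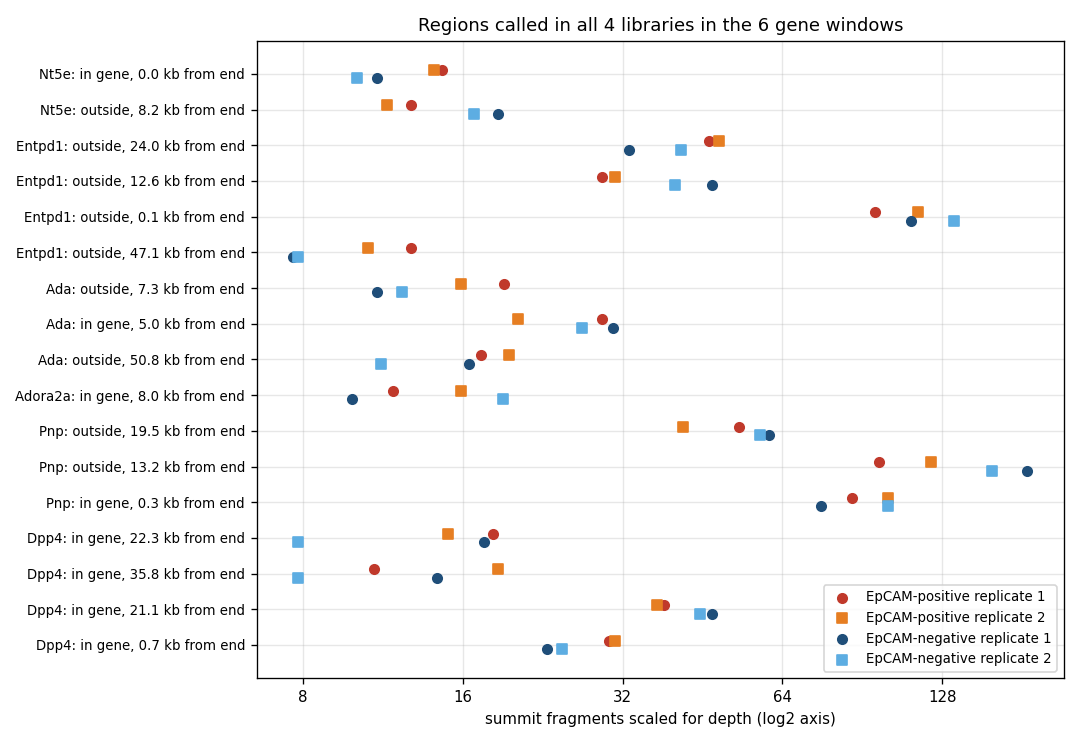
Scaled summit fragments (log2 axis) of each library in the 17 regions called in all 4 libraries, with each row named by the gene whose window holds the region, its place inside or outside that gene and its distance from the nearer gene end. Circles are replicate 1 and squares replicate 2. At the start of Nt5e the EpCAM-positive points (14.6 and 14.1) lie to the right of the EpCAM-negative ones (11.0 and 10.1), and in the row outside Pnp at 13.2 kb they lie to the left (97.5 and 122 against 185 and 159).

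Differences at the 17 regions had a median of 0.10 on the log2 scale, EpCAM-positive minus EpCAM-negative, and ran from −0.65 to 0.59. Over all shared regions the median was 0.00, with the 5th and 95th percentiles at −0.61 and 0.58. Nt5e, Entpd1, Ada, Pnp and Dpp4 each had regions of either sign. The regions at the end of Pip4p1 (percentile 4.25), within Pkig (95.2) and within Cc2d2b (95.1) lay just outside these limits. The other differences lay between them.

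**Figure D3:**
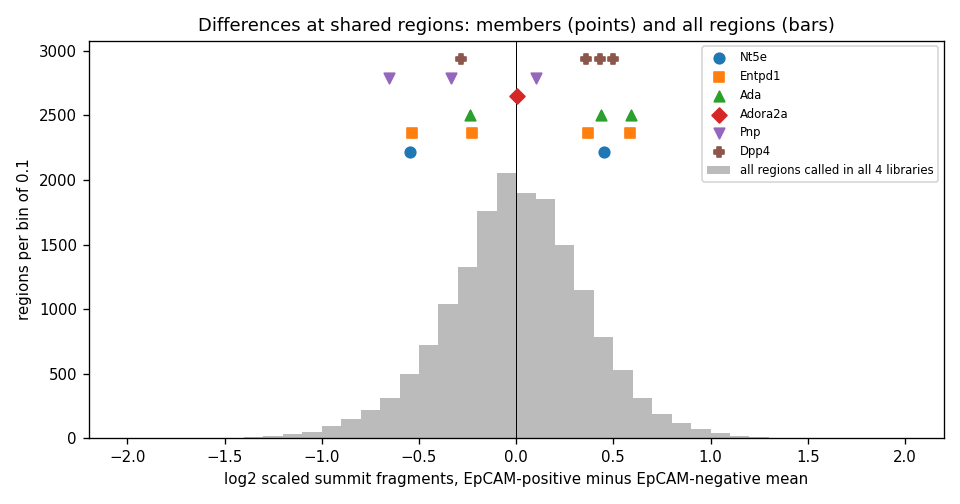
Grey bars count all 16761 regions called in all 4 libraries by their log2 difference in scaled summit fragments, EpCAM-positive minus EpCAM-negative mean, in bins of 0.1, and points mark the 17 regions of the 6 gene windows, set above the bars at a height that has no meaning. The points run from −0.65 to 0.59 and lie on both sides of 0.

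The wider pathway was followed in 80 genes of purine metabolism and adenosine signalling, the 6 members included. Of these, 21 (26.2%) had an EpCAM-positive-only region within their window of 60 kb, 8 (10%) an EpCAM-negative-only region and 2 both. The second count holds Nt5e, picked for its region. Without the 6 members, 20 of 74 genes (27%) and 6 of 74 (8.11%) had one. Over all 21883 protein-coding genes the shares were 17.9% and 5.51%. The windows of the list held more regions, with a median of 6 against 4, so higher shares in both directions are not read as particular to it. Of the 80 genes, 42 had a region within 1 kb of a gene end in all 4 libraries. That is a larger share than the 41.3% of all protein-coding genes, and the difference was not tested.

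By role, the 11 genes listed under extracellular nucleotide breakdown had 3 with an EpCAM-negative-only region, Nt5e, which was picked for it, Dpp4 and Acpp. Dpp4 was placed in this group although it encodes a peptidase. With an EpCAM-positive-only region there were 2, Entpd2 and Entpd3, and for both the nearest gene end belonged to another gene. Acpp, an acid phosphatase that can also make adenosine from AMP, had its region inside the gene, 83 bp from its end, with 9 and 8 summit fragments. Receptors had 1 and 3 of 14, in that order, with P2rx1, an ATP-gated channel, in both directions; its own region of 13 and 12 summit fragments lay 67 bp from an EpCAM-positive peak. Transporters had 0 and 1 of 5, the latter being Slc29a3. For the EpCAM-positive-only regions of the receptor genes and of Slc29a3, the nearest gene end also belonged to another gene. Salvage and breakdown genes had 0 and 3 of 23, namely Ada, Adk and Ampd1, and for the last 2 the nearest gene end belonged to another gene.

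The 18 genes of purine synthesis, adenylate kinases included, had 9 with an EpCAM-positive-only region in the window and 0 with an EpCAM-negative-only one. Among these regions, only those of Atic (11 and 6 summit fragments) and Paics (10 and 7), both enzymes of the pathway to inosine monophosphate, lay inside the gene. The Paics region is nearest to the end of its neighbour Ppat and also falls in that gene's window, so the 9 genes are not independent. Of the 9 genes that carry the signal of the receptors, 4 had an EpCAM-negative-only region (Pde4d, Pde7a, Creb1 and Prkacb) and 3 an EpCAM-positive-only one (Pde4b, Pde4d and Gnas). Those inside the phosphodiesterase genes were at 10 summit fragments in each EpCAM-negative library for Pde4d, at 20 and 18 in EpCAM-positive libraries for a second Pde4d region, 48 bp from an EpCAM-negative peak, and at 6 and 7 for Pde4b. The EpCAM-positive-only region inside Gnas had 10 and 17 and lay 125 bp from an EpCAM-negative peak. Creb1 had an EpCAM-negative-only region inside the gene with 5 and 4 and a second one outside it with 7 and 6. The lowest listed value was 5 summit fragments in each EpCAM-positive list and 3 in each EpCAM-negative list. A value of 4, as inside Creb1, thus lay below every peak listed on the EpCAM-positive side. The window of Nt5e, with 0 EpCAM-positive-only and 1 EpCAM-negative-only region over the 4 libraries, was matched in these 2 counts by those of Acpp, Dpp4, Pde7a and Prkacb, and by 3.67% of all genes.

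**Figure D4:**
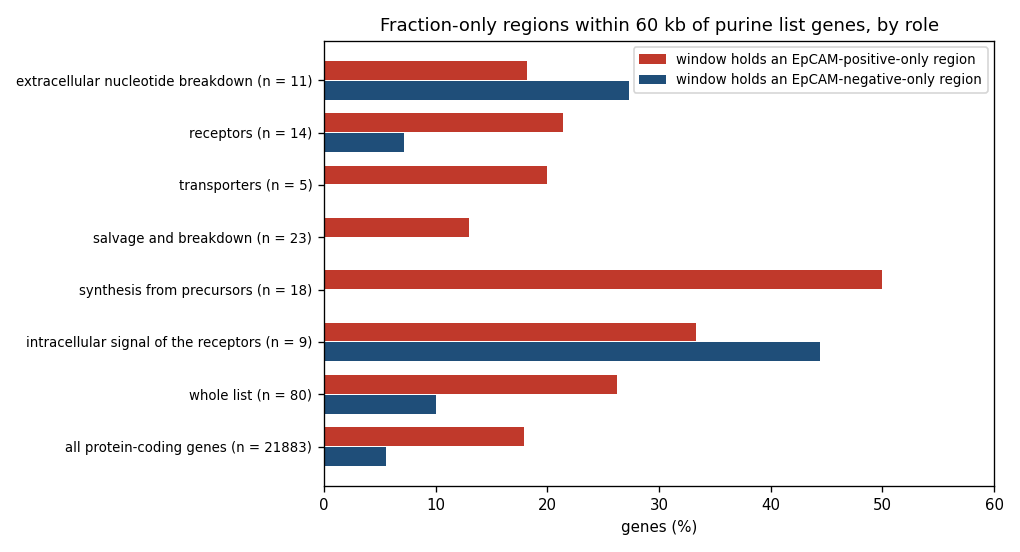
Share of genes (%) whose span and 60 kb on either side held an EpCAM-positive-only or an EpCAM-negative-only region, for the 80 purine genes by role, for the whole list and for all 21883 protein-coding genes; n is the number of genes. The 11 extracellular genes include Nt5e, picked for its EpCAM-negative-only region, and Dpp4, which encodes a peptidase. The 18 synthesis genes show 50% and 0%, and all genes 17.9% and 5.51%.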

How the data were processed

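ATAC-seq peaks of 2 EpCAM-positive and 2 EpCAM-negative libraries of mouse DN3 thymocytes were used, 1 deposited list per library, not pooled. The submitters' processing notes list MACS3 among the tools, besides Bowtie2, Picard and SAMtools, and build mm10 (GRCm38). Versions, settings, duplicate handling and any transposase shift were not given in the sources used here. Each deposited list gives a display score, a ratio (the fold over local background), a −log10 p-value and a −log10 q-value per peak, made by the authors' peak caller.

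From these, a whole pileup and a background were solved for every peak (fold with 1 added to both terms, Poisson p-value, tolerance of 0.01), tested on simulated data, which worked for 100% of peaks in each list. A fragment here is 1 unit of that pileup, be it a read or a pair. Python 3.11.15 with pandas 2.3.3 and scipy 1.17.1 was used. Peaks overlapping by 1 bp were merged. Gene spans came from RefSeq GRCm38.p6, which here gives no exons, so exons and introns were not annotated, and strands came from its promoter table. No genome sequence was used here, so distal regions are given without sequence. All 80 listed purine genes were matched. Counting intervals are exact (Clopper-Pearson, 95%) for the EpCAM-positive share of summit fragments, cover counting error only, ignore that a summit is a maximum, and were added after the data had been seen.

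For an unlisted region, the smallest listable pileup took the background of the libraries that listed it, scaled. Named were the 6 members with their regions, purine genes holding a fraction-only region, and neighbours whose end is nearer. The members and lists were chosen with earlier results of these data known. Alternatives were other flanks, merging distances, thresholds, list lengths and scalings, and leaving out each library.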

Additional observations from a re-analysis of the deposited data

How the results depend on the processing

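Most counts moved little with the processing: of 79 values under the alternatives, 63 stayed within 1.5 times the reported count or, for the difference in peaks per library, kept its sign and stayed within the SD of 3.81. With a 20 kb flank the EpCAM-negative-only count was 1 (Dpp4), the shared regions with both EpCAM-positive values on top were 3, and the mean difference in peaks per library, EpCAM-positive minus EpCAM-negative, was 0.5. With a 100 kb flank that difference was −6.5. With a −log10 q of at least 5 it was 2, and the EpCAM-negative-only count was 1 (Nt5e). Without scaling, shared regions with both EpCAM-negative values on top were 3. Leaving out 1 library at a time, regions called in all remaining libraries were 18 to 20, EpCAM-positive-only regions 1 to 4, EpCAM-negative-only regions 3 to 5, the difference in peaks −5.5 to 1.5, and shared regions with the EpCAM-positive values on top 7 to 10 and with the EpCAM-negative values on top 6 to 8. With a library left out the patterns are easier to meet, which can raise the fraction-only counts. The Ada region was EpCAM-positive-only under each flank, merging rule, threshold and list length tried. With a 20 kb flank, 18 of the 80 purine genes had a fraction-only region of either kind. An EpCAM-positive-only region was held by 13 and an EpCAM-negative-only one by 6, beside 9.61% and 2.87% of all genes. With a 100 kb flank, 36 had either kind. By direction these were 28 and 11, beside 24.4% and 8.11% of all genes. With the replicate number as a block, added after the data had been seen, peaks differed by −7 between the libraries numbered 1 and by 3 between those numbered 2 (mean −2, exact sign permutation p = 1, the smallest possible being 0.5). Shared regions higher on the EpCAM-positive side in both such pairs were 8, and on the EpCAM-negative side 7, beside 31.2% and 30.3% of all shared regions. Same-numbered libraries deviated together with a correlation of 0.16 across shared regions, but the labels give them only a number in common. Pileups under about 10 leave wide counting intervals, so presence in 1 list and absence in another is not evidence of closed chromatin.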
